A study of Mus musculus with 40 samples.

Results

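The genes described here are 35 genes of glycolysis and of the hypoxia-inducible factor HIF-1 pathway, followed in bone-marrow-derived macrophages (BMDMs) given an inhibitor of mitochondrial complex I, with or without a second NADH dehydrogenase that the inhibitor does not reach. They were chosen by symbol. The rows of the deposited count table whose Ensembl identifiers map to the 35 symbols were taken, all 35 were present among 43430 genes, and all 35 were among the 11853 genes that passed the filter on low counts and were tested. Of the 35, 22 take part in glucose uptake, glycolysis or the transport of lactate and pyruvate, and 13 are Hif1a and other HIF-1 targets. The data were 40 poly(A)-selected RNA-seq libraries from C57/Bl6 mice (the NDI1 line of mixed C57Bl/6J/N background, per the study's methods), 5 mice of each genotype, with 1 library of each mouse in each of 4 treatments. Mice were 8 to 14 weeks old and of both sexes. All 10 carried the VAV-Cre transgene, which drives Cre in hematopoietic cells. The 5 NDI1 mice also carried a lox-stop-lox NDI1 construct in the Rosa26 locus, so that Cre switches on the yeast NADH dehydrogenase NDI1, and the 5 WT mice did not. Marrow was cultured with 20 ng/ml M-CSF and harvested on day 6, and all cells were in medium with 11 mM glucose, 1 mM methyl-pyruvate, 4 mM glutamine and uridine. Within each genotype the groups were untreated, LPS (100 ng/ml for 4 h), piericidin A (500 nM, an inhibitor of complex I) and LPS and piericidin A, in which piericidin A was added 30 min before LPS. NDI1 is not inhibited by piericidin A and passes electrons from NADH to coenzyme Q without pumping protons.

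Glycolysis takes glucose into the cell through transporters such as GLUT1 (Slc2a1), traps it by phosphorylation with a hexokinase, commits it at phosphofructokinase and ends in pyruvate, which lactate dehydrogenase reduces to lactate for export by monocarboxylate transporters. HIF-1 is a transcription factor made of HIF-1 alpha (Hif1a) and a constant partner. In the presence of oxygen, prolyl hydroxylases (Egln1, Egln3) mark HIF-1 alpha for destruction, and when the protein is stable it binds short elements with the core ACGTG or GCGTG and raises glycolytic enzymes, Vegfa, Adm and its own hydroxylases. Macrophages given LPS are known for a shift towards glycolysis. The counts are of mRNA and say nothing of HIF-1 alpha protein or of glycolytic flux.

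The sequences upstream of 5 glycolysis genes are shown because these 5 were the glycolysis genes whose effect of piericidin A alone was called lower in NDI1 than in WT BMDMs when libraries of the same mouse were compared (Pfkfb4, called in the other direction, is not shown). They were chosen after those values were seen. Each run is the 250 bases before a RefSeq transcription start in GRCm38.p6, written 5′ to 3′ on the strand of the gene, with ACGTG and GCGTG in capitals wherever they occur on either strand (on the other strand they read CACGT and CACGC).
Slc2a1, chr4:119108495-119108744, plus strand: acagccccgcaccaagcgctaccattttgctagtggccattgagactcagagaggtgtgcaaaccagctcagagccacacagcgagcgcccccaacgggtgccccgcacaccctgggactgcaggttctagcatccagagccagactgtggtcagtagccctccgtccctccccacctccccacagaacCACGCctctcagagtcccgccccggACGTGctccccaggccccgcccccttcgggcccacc
Hk2, chr6:82774455-82774704, minus strand: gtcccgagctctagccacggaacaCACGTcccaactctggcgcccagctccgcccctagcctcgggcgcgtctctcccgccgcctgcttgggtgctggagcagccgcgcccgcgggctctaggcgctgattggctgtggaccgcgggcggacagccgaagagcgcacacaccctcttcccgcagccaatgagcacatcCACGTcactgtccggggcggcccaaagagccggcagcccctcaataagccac
Pfkfb3, chr2:11553930-11554179, minus strand: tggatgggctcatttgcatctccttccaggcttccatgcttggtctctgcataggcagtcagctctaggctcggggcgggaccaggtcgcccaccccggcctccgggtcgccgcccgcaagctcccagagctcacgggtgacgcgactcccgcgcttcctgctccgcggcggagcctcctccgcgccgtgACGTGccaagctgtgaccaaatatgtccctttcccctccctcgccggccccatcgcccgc
Pgam1, chr19:41911621-41911870, plus strand: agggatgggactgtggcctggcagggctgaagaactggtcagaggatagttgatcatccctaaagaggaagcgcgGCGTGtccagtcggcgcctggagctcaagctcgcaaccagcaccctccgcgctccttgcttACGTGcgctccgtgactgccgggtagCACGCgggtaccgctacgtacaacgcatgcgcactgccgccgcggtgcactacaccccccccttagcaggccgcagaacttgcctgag
Slc16a1, chr3:104638414-104638663, plus strand: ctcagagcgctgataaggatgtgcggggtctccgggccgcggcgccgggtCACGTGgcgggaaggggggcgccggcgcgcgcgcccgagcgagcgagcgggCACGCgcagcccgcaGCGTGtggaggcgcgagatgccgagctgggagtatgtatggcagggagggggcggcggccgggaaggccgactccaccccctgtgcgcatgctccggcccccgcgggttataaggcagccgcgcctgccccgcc
A RefSeq promoter window of 300 bases, 250 before and 50 after the start, was found for 34 of the 35 genes, with 50 windows in all because some genes have several starts. The gene without a window was Ndrg1. ACGTG or GCGTG occurred on either strand in 39 of the 50 windows (78%), belonging to 31 of 34 genes, against 43.8% of 32851 windows genome-wide. The palindrome CACGTG, which holds ACGTG on both strands, occurred in 6 of the 50 windows (12%) against 7.15% of all windows, and the upstream run of Slc16a1 is among them. The window at the outermost start of Vegfa held no match, while a window at an inner start held 2. A match is a stretch of letters and was not tested as a binding site. The 35 were listed as genes of glycolysis or the HIF-1 pathway, so their share cannot be read as a result of these data. The 32851 windows were not limited to genes expressed here. The upstream run of Pfkfb4, not shown, held 1 match.

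Library totals ran from 6950748 to 13552070 counts, with a median of 10361773.5. Libraries of a group differed by more than counting noise in every pair (chi-square per degree of freedom 9.35 to 77.3 over 80 pairs), so no library was a copy of another of its group. Pairs from different groups were not compared in this way. Of the variance between libraries, the leading principal component took 69.5%, while the next took 7.32% and set apart all libraries of WT mouse 496 and NDI1 mouse 503. The NDI1 gene is not in the mouse gene table, so the genotype was not checked from these counts. Macrophage markers (Adgre1, Csf1r, Cd68, Itgam, Lyz2, Mertk, Fcgr1, Cd14) were high in every library, with a summed level of 19674 to 38691 CPM (the unit of normalised counts used throughout, scaled for library size by TMM). Summed neutrophil markers (Ly6g, S100a8, S100a9, Mpo, Elane, Camp) were at 8.77 to 109 CPM in the other 8 mice, and the defining marker Ly6g had a median of 0. In mouse 503 the sum was 268 CPM untreated, 539 with LPS, 345 with piericidin A and 540 with both. In mouse 496 it was 267, 625, 946 and 1581 CPM in the same order. The sum was higher with piericidin A in 5 of 5 WT mice, both without LPS (median 28.7 to 46.3 CPM) and with it (47.2 to 107), and in 4 of 5 NDI1 mice in each setting (40.8 to 33.4 and 61.2 to 78.8), so in WT it moved with the drug in every mouse. Stromal markers were highest in mouse 496 too (30.6 to 104 CPM). T-cell markers summed to at most 1.08 CPM without LPS and 6.07 to 14.6 with LPS, nearly all of it Lck, dendritic-cell markers to at most 19.0, B-cell markers to at most 12.8 and erythroid markers to at most 0.480 CPM. The part of these markers in the results was not tested. Counts without mice 496 and 503 are given beside the piericidin A comparisons. In bulk RNA, fewer cells of a type and less RNA per cell cannot be told apart.

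Below, the 5 values of a group are given in the order of mice 449, 452, 453, 496 and 520 for WT and 447, 460, 461, 503 and 521 for NDI1, and mean ± SD is over these 5 mice. Fold changes are log2 with their SE, from edgeR's quasi-likelihood test over 8 groups, and a gene is called at an adjusted p under 0.05 over all 11853 genes. That fit treats libraries as unrelated. A fit with the mouse as a block compares libraries of the same mouse, and its value is given where it changes the call of a gene described. Each of the 5 libraries of a group came from a different mouse.

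In untreated WT BMDMs the 5 glycolysis genes with the highest levels were enzymes from aldolase to lactate dehydrogenase. Per kilobase of merged exons, Aldoa (aldolase A) stood at 381 ± 80.8 CPM, Pkm (pyruvate kinase) at 201 ± 22.7, Ldha (lactate dehydrogenase A) at 155 ± 36.2, Gapdh at 88.7 ± 20.9 and Tpi1 (triosephosphate isomerase) at 83.4 ± 15.9. The order of Gapdh and Tpi1 lies within their spread. Merged exons join all annotated exons of a gene, so this length can exceed that of the mRNA. For Gapdh it was 4133 bases, in a gene spanning 4753. Comparisons of levels between genes, here and below, depend on this length. Among hexokinases the per-kilobase level of Hk3 was 60.8 ± 12.8 CPM, as high as Pgk1 (58.0 ± 21.3), Eno1 (54.5 ± 15.4) and Gpi1 (44.3 ± 8.17) within their spread, against 11.2 ± 1.22 for Hk1 and 10.7 ± 4.67 for Hk2, and the levels of Hk1 and Hk2 do not differ beyond their spread. Slc2a1 stood at 11.1 ± 6.88, Slc16a3 (the lactate exporter MCT4) at 11.1 ± 3.29 and Slc16a1 (the transporter MCT1) at 2.19 ± 0.730 CPM per kilobase. Of the HIF-1 group, Mif was highest at 78.7 ± 27.8 and Adm lowest at 0.0502 ± 0.0338. Several of these genes share sequence with other annotated genes. The share of 75-base stretches of their transcripts that occur in transcripts of other genes was 52.8% for Pgk1, 38.3% for Mif, 34.9% for Pgam1, 34.4% for Bnip3, 23.0% for Eno1, 22.6% for Gapdh, 21.95% for Higd1a and 17.8% for Pkm, so their levels are uncertain where reads could be assigned to the other gene. For Pkm, Bnip3 and Higd1a the other genes include 1 that overlaps at the same locus (Gm49759, Gm45507 and Gm47112) and is not in the count table. Levels of genes with exons on the strand opposite another gene (Gpi1 with Gm26762, 11.5% of exon bases, and Ankrd37 with Lrp2bp, 22.7%) are uncertain too, since the strand setting of the counting is not given in the sources used here.

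The first comparison asked what LPS did to these genes. In WT BMDMs 16 of 35 were called, 13 higher and 3 lower, and in NDI1 BMDMs 17, of which 13 were higher and 4 lower. The glucose transporter Slc2a1, all 3 hexokinases, Pfkp, Pfkfb3, Ldha, both monocarboxylate transporters, Hif1a, P4ha1, Ndrg1 and Adm rose in both genotypes, and Pfkfb4, Vegfa and Kdm3a fell in both. Ankrd37, an ankyrin-repeat protein at low counts, fell in NDI1 (log2 fold change -1.91 ± 0.53, adjusted p = 0.00210) and had a log2 fold change of -1.17 ± 0.53 in WT (adjusted p = 0.0556, and 0.0142 with the mouse as a block, a fit that compares libraries of the same mouse). LPS changed most genes of these cells: 62.5% of all genes tested were called in WT (31.5% higher, 31.0% lower) and 62.7% in NDI1, above the share called among the 35 (45.7% in WT). The median log2 fold change in WT was 0.39 over the 22 glycolysis genes and 0.35 over the 13 HIF-1 genes, against -0.01 over all genes. The size of these changes depends on the scaling. Of all raw counts, the 22 glycolysis genes held 0.623 ± 0.102% untreated and 0.562 ± 0.0635% with LPS in WT. In NDI1 they held 0.708 ± 0.193% and 0.675 ± 0.188%. With upper-quartile scaling, 6 of the 35 in WT and 7 in NDI1 had a fold change of the other sign. With the mouse as a block, 27 genes were called in WT (72.0% of all genes) and 28 in NDI1 (72.4%). The LPS effect was called different between genotypes for 0 of 35 (0% of all genes, DESeq2 0), and 0 of 35 reached an unadjusted p under 0.05, against 63 of all genes.

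**Figure D1:**
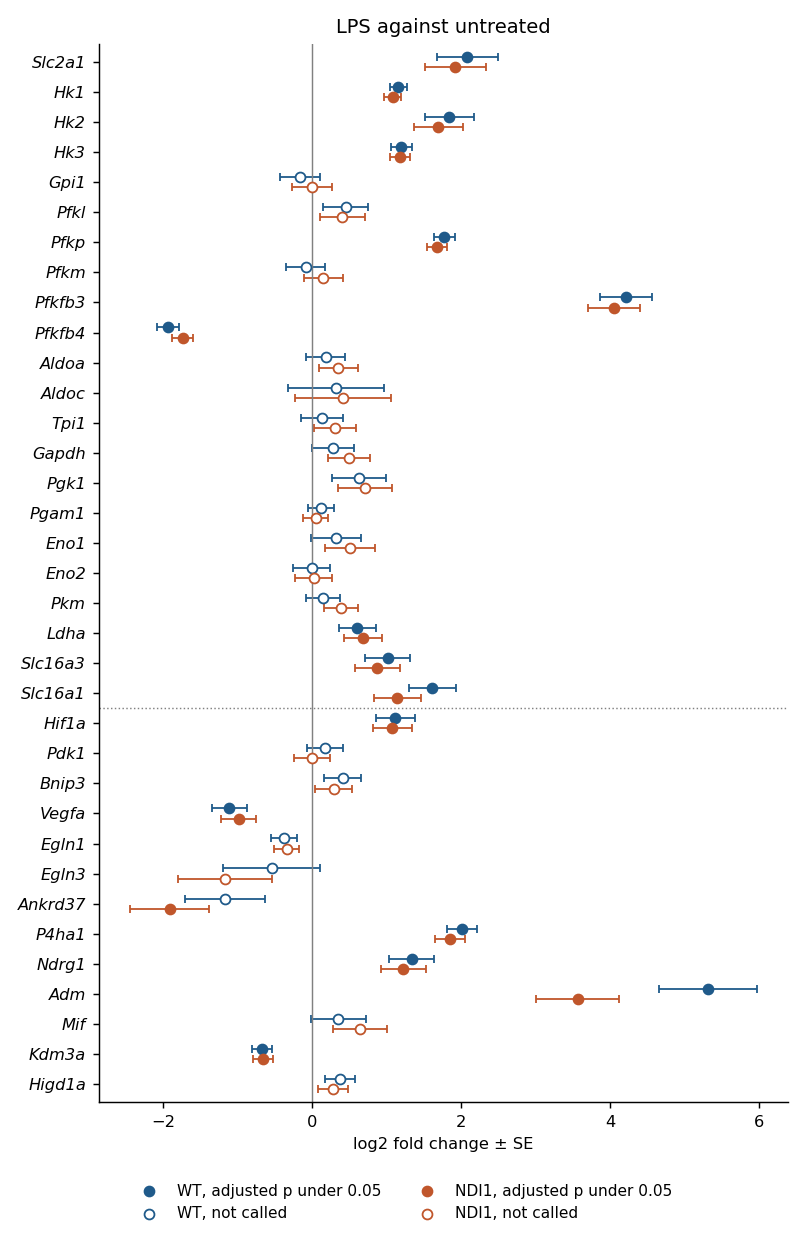
Log2 fold change ± SE of LPS against untreated for the 35 genes (rows, glycolysis above the dotted line and the HIF-1 group below it) in WT (blue) and NDI1 (orange) BMDMs, 5 mice per group. Filled points had an adjusted p under 0.05. Pfkfb3 and Adm lie farthest to the right in both genotypes, and Pfkfb4, Vegfa and Kdm3a lie to the left with filled points in both.

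The second comparison asked what piericidin A did without LPS, and whether NDI1 removed it. In WT BMDMs 10 of 35 were called. Hk2, Pfkfb3, Pgam1, Eno2, Slc16a1, Hif1a, Vegfa, Ndrg1 and Adm rose and Pfkfb4 fell. That is 28.6% of the 35, against 14.8% of all genes (7.79% higher and 7.05% lower). The median log2 fold change was 0.40 over the glycolysis genes and 0.60 over the HIF-1 genes, against -0.00 over all genes, and 20 of 22 glycolysis genes had a fold change above 0, 19 of them in 5 of 5 mice. With the mouse as a block 23 were called, 22 of them higher, against 34.2% of all genes (17.2% higher). In NDI1 BMDMs 0 of 35 were called with either fit (0% of all genes, DESeq2 0). At an unadjusted p under 0.05 there was 1 of the 35, Adm, and 58 of all genes. The effects in NDI1 ranged from -0.18 to 0.39 over the glycolysis genes, with a median of 0.10. Over the HIF-1 genes they ranged from -2.26 (Adm, at very low counts) to 0.35. The difference between genotypes was itself called for Vegfa, Ndrg1 and Adm (1.27% of all genes). With the block it was called for 11, of which Slc2a1, Hk2, Pfkfb3, Pgam1, Slc16a1, Hif1a, Vegfa, Egln3, Ndrg1 and Adm had the lower effect in NDI1 and Pfkfb4 the higher (8.96% of all genes). Without mice 496 and 503 the count in WT was 8 (7.66% of all genes), and 19 with the block (22.8%), and the genotype difference was called for 4 (0.607%), and 8 with the block (3.33%). Leaving out 1 mouse at a time, the blocked difference was called for 9 to 11 of the 35 (5.34% to 11.1% of all genes).

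The third comparison asked what piericidin A did in the presence of LPS. In WT BMDMs 4 of 35 were called: Pfkm, Slc16a1 and Vegfa rose and Pfkfb3 fell, 11.4% of the 35 against 16.7% of all genes. The block called 15, of which Hk2, Gpi1, Pfkm, Aldoa, Aldoc, Gapdh, Pgam1, Eno1, Pkm, Slc16a1, Vegfa, Ndrg1 and Mif rose and Pfkfb3 and P4ha1 fell, against 34.5% of all genes (15.6% higher). Without mice 496 and 503 the count in WT was 4 (8.07% of all genes), and 16 with the block (22.4%). In NDI1 BMDMs 0 of 35 were called with either fit and 0 reached an unadjusted p under 0.05 (0% of all genes called, 127 at an unadjusted p under 0.05, DESeq2 0). The difference between genotypes was called for Vegfa alone (0.979% of all genes), and for 0 of 35 without mice 496 and 503 (0.152% of all genes, with 4 of 35 and 1099 of all genes at an unadjusted p under 0.05). With the block it was called for 9, namely Gpi1, Aldoa, Aldoc, Gapdh, Pgam1, Pkm, Vegfa and Mif with the lower effect in NDI1, where none of them was called (log2 fold changes of -0.15 to -0.03 without the block), and Pfkfb3 with the higher (9.51% of all genes), and for 5 with the block and without mice 496 and 503 (2.46%). Leaving out 1 mouse at a time, the blocked difference was called for 6 to 10 of the 35 (3.86% to 13.8% of all genes). The effect of piericidin A in WT with LPS minus that without LPS was called for Pfkfb3 and Adm (4.75% of all genes), and with the block for 8 (17.4% of all genes). Without mice 496 and 503 it was called for 3 (1.58%), and for 4 with the block (8.21%). In NDI1 that difference was called for 0 of 35 (0% of all genes, DESeq2 0), with 1 of 35 and 78 of all genes at an unadjusted p under 0.05.

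**Figure D2:**
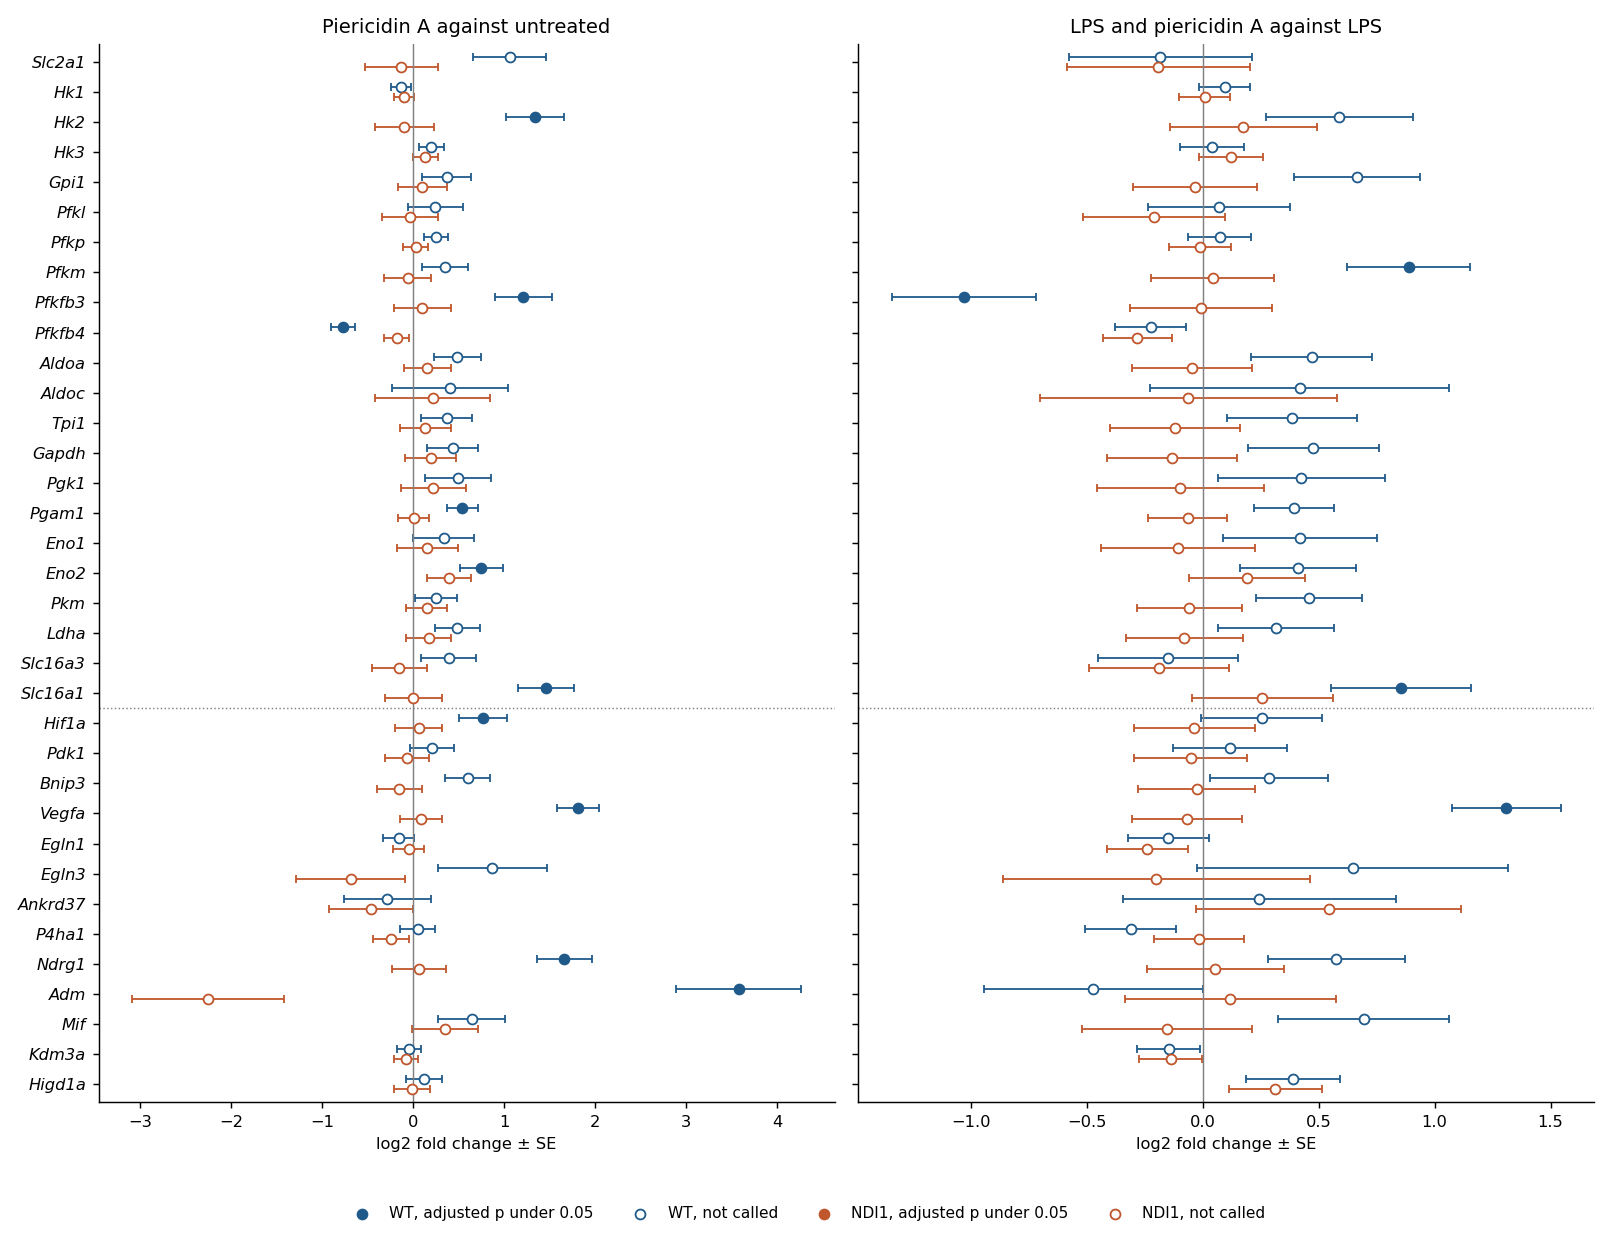
Log2 fold change ± SE of piericidin A against untreated (left) and of LPS and piericidin A against LPS (right) for the 35 genes in WT (blue) and NDI1 (orange) BMDMs, 5 mice per group. Filled points had an adjusted p under 0.05 in the fit without a mouse block. All orange points are open, and the blue points of Vegfa, Ndrg1 and Adm lie far to the right in the left panel, while Pfkfb3 lies on opposite sides of 0 in the 2 panels.

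Glucose entry and phosphorylation came first in the pathway. Slc2a1 (ENSMUSG00000028645, chr4:119108711-119137330) stood at 23.4, 19.6, 20.7, 66.1 and 64.3 CPM in untreated WT BMDMs and at 64.4, 45.1, 70.9, 119 and 107 CPM with piericidin A. Every mouse was higher with the drug, but the groups overlap because mice 496 and 520 started high. The log2 fold change was 1.06 ± 0.40, not called without the block (adjusted p = 0.0673) and called with it (1.16 ± 0.20, adjusted p = 5.3e-05). The NDI1 libraries held 24.0, 55.5, 24.9, 54.8 and 40.9 CPM untreated and 26.9, 29.2, 26.6, 49.6 and 50.9 with piericidin A, higher in 3 of 5 mice, and with the block the effect was 1.25 ± 0.29 lower on the log2 scale than in WT (adjusted p = 0.00492). With LPS, Slc2a1 rose to 120, 74.1, 92.5, 328 and 211 CPM in WT (log2 fold change 2.09 ± 0.41) and to 73.4, 168, 107, 287 and 122 CPM in NDI1 (1.92 ± 0.41). With both agents it stood at 167, 108, 140, 195 and 116 CPM in WT and 68.6, 127, 112, 222 and 136 in NDI1, higher than with LPS alone in 3 of 5 WT mice.

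Hk2 (ENSMUSG00000000628, chr6:82725025-82774454), the inducible hexokinase, rose with both agents. In WT it stood at 56.6, 43.2, 37.3, 106 and 75.2 CPM untreated, 227, 74.9, 98.4, 238 and 168 with piericidin A, 214, 189, 153, 382 and 207 with LPS and 352, 301, 252, 501 and 315 with both. In NDI1 it stood at 46.6, 58.6, 61.6, 103 and 48.0 CPM untreated, 36.6, 46.5, 63.8, 101 and 49.8 with piericidin A, 177, 211, 169, 325 and 148 with LPS and 238, 192, 191, 370 and 172 with both. In WT, piericidin A raised it in every mouse, by 1.34 ± 0.32 on the log2 scale without LPS (adjusted p = 0.00432), and by 0.59 ± 0.32 with LPS, which was called with the block only (0.62 ± 0.14, adjusted p = 0.00110). In NDI1 the effect without LPS was -0.10 ± 0.32, with a 95% interval of -0.74 to 0.55, and the difference between genotypes was called with the block (-1.43 ± 0.21, adjusted p = 1.7e-05; adjusted p = 0.118 without). Hk1 and Hk3 rose with LPS, Hk1 by 1.16 ± 0.11 and Hk3 by 1.20 ± 0.14 in WT. With piericidin A alone in WT they had log2 fold changes of -0.13 ± 0.11 and 0.20 ± 0.14 and were not called, so among the hexokinases the drug's call was on Hk2.

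Phosphofructokinase is the committed step, and PFKFB enzymes set its activator fructose 2,6-bisphosphate. Pfkfb3 (ENSMUSG00000026773, chr2:11471433-11554077), a form whose kinase activity far exceeds its phosphatase activity, had the largest LPS response of the 22 glycolysis genes in both genotypes. In WT it stood at 36.0, 49.3, 30.3, 79.9 and 52.2 CPM untreated, 136, 66.7, 55.5, 197 and 118 with piericidin A, 878, 723, 591, 1339 and 1053 with LPS and 471, 648, 331, 476 and 319 with both. The NDI1 libraries held 44.4, 59.2, 39.3, 86.4 and 37.6 CPM untreated, 41.8, 55.1, 39.1, 104 and 46.2 with piericidin A, 627, 868, 865, 1279 and 771 with LPS and 736, 739, 794, 1277 and 839 with both. Piericidin A therefore moved it in opposite directions in WT: up in 5 of 5 mice without LPS (1.21 ± 0.31, adjusted p = 0.00772) and down in 5 of 5 mice with LPS (-1.03 ± 0.31, adjusted p = 0.0193). The difference between these effects was -2.24 ± 0.44 (adjusted p = 0.00195). In NDI1 the effects were 0.10 ± 0.31 (95% interval -0.53 to 0.73) and -0.01 ± 0.31 (-0.63 to 0.61). The genotypes differed in the effect with the block only, both without LPS (-1.10 ± 0.26, adjusted p = 0.00557) and with LPS (0.97 ± 0.25, adjusted p = 0.0137, lost without mouse 520 at 0.0696). The call without LPS was lost without mouse 449 (adjusted p = 0.0625) and the call with LPS without mouse 496 (0.0760), mouse 520 (0.136) or the smallest library (0.0535).

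Pfkfb4 (ENSMUSG00000025648, chr9:108991902-109032197), another isoform of the same enzyme, went the other way. In WT it stood at 35.5, 31.9, 31.7, 41.5 and 28.0 CPM untreated, 24.5, 20.8, 19.4, 18.5 and 15.5 with piericidin A, 6.53, 10.5, 9.48, 7.55 and 10.1 with LPS and 6.70, 8.19, 8.01, 9.11 and 5.85 with both. In NDI1 it stood at 31.0, 38.4, 35.2, 40.6 and 31.8 CPM untreated, 25.1, 35.7, 32.2, 35.2 and 27.9 with piericidin A, 10.9, 13.8, 8.78, 10.3 and 9.38 with LPS and 9.64, 9.13, 7.94, 9.11 and 8.01 with both. The WT groups with and without LPS do not overlap, nor do untreated and piericidin A. Pfkfb4 fell with LPS (-1.93 ± 0.15 in WT and -1.73 ± 0.14 in NDI1) and with piericidin A alone in WT (-0.77 ± 0.14, adjusted p = 0.000127). In NDI1 the drug's effect was -0.18 ± 0.13, lower in 5 of 5 mice and not called (adjusted p = 1.00), and its difference from WT was called with the block (0.59 ± 0.16, adjusted p = 0.0154, lost without mouse 496 at 0.0599, and 0.129 without the block).

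Of the phosphofructokinase subunits, Pfkp (platelet type) rose with LPS by 1.78 ± 0.14 in WT, from 84.8 ± 10.0 to 290 ± 60.4 CPM. Pfkl (liver type) was called with LPS with the block only (0.42 ± 0.15 in WT, adjusted p = 0.0151). Pfkm (muscle type), the scarcest, stood at 3.95, 3.95, 3.35, 4.80 and 9.08 CPM with LPS and 8.18, 5.89, 7.21, 10.2 and 14.5 with LPS and piericidin A in WT, higher in every mouse with overlapping groups. The log2 fold change was 0.89 ± 0.27 (adjusted p = 0.0186). Without LPS, Pfkm stood at 5.63, 6.10, 5.21, 3.58 and 5.77 CPM untreated and 8.33, 7.95, 5.47, 5.08 and 6.81 with piericidin A in WT, and was not called (0.35 ± 0.25). In NDI1 with LPS the groups were at 5.27, 5.54, 6.75, 6.56 and 5.04 and at 5.76, 5.62, 6.39, 6.12 and 6.09 CPM (0.04 ± 0.26), and the genotypes were not called different (-0.84 ± 0.38, adjusted p = 0.301; 0.0859 with the block). The WT call was lost without mouse 449, 453 or 496 (adjusted p from 0.0534 to 0.0784), without mice 496 and 503 (0.0558) and in the groups compared alone (0.0956). Pfkm shares 10.2% of its exon bases with Gm26513 on the same strand.

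The isomerase, the aldolases and the enzymes from triose phosphate to pyruvate came next. In the fit without the block, Pgam1 (phosphoglycerate mutase) and Eno2 (the neuronal enolase) were called with piericidin A alone and no other gene among Gpi1, Aldoa, Aldoc, Tpi1, Gapdh, Pgk1, Eno1 and Pkm was called in any comparison. Pgam1 (chr19:41911871-41918664) stood at 48.2, 53.9, 62.9, 48.2 and 46.2 CPM untreated and 57.3, 81.1, 98.8, 69.3 and 70.9 with piericidin A in WT, higher in 5 of 5 mice (0.54 ± 0.17, adjusted p = 0.0271). The NDI1 libraries held 62.8, 77.5, 50.8, 47.0 and 56.5 CPM and 63.6, 75.3, 51.0, 44.6 and 61.4 CPM (0.01 ± 0.17, 95% interval -0.34 to 0.35), and the difference was called with the block (-0.52 ± 0.11, adjusted p = 0.00177; 0.373 without). Eno2 rose from 3.85 ± 1.09 to 6.48 ± 1.11 CPM in WT (0.75 ± 0.24, adjusted p = 0.0274). In NDI1, Eno2 went from 3.48 ± 0.388 to 4.57 ± 0.934 CPM, higher in 4 of 5 mice and not called (0.39 ± 0.24), and the genotypes were not called different with either fit (-0.35 ± 0.33, 95% interval -1.03 to 0.32). The Pgam1 call was lost without mouse 452, 453, 496 or 520 (adjusted p from 0.0569 to 0.100) and the Eno2 call without mouse 452, 496 or 520 (0.0593 to 0.166). Both were also lost with no filter (0.0593 and 0.0660) and without mice 496 and 503 (0.0566 and 0.153), and Pgam1 with upper-quartile scaling (0.0510).

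These other enzymes were called when libraries of the same mouse were compared. Aldoa stood at 945, 1261, 1437, 869 and 1030 CPM untreated and 1322, 1849, 1998, 1271 and 1318 with piericidin A in WT, so mice differed more than treatments while every mouse rose (0.49 ± 0.26, adjusted p = 0.217; with the block 0.48 ± 0.09, adjusted p = 0.000170). Gapdh stood at 313, 473, 440, 337 and 269 CPM untreated and 427, 680, 573, 475 and 324 with piericidin A in WT, again higher in 5 of 5 mice (with the block 0.42 ± 0.09, adjusted p = 0.000905). With the block, Gpi1, Aldoc, Tpi1, Pgk1, Eno1, Pkm and Ldha also rose with piericidin A alone in WT, with log2 fold changes from 0.24 (Pkm, adjusted p = 0.0485) to 0.48 (Ldha). Aldoc, a further aldolase, stood at 13.04, 40.5, 32.8, 5.01 and 16.6 CPM untreated and 18.5, 55.5, 41.8, 5.86 and 21.4 with piericidin A in WT, and at 17.7, 60.2, 32.8, 4.94 and 18.5 CPM with LPS and 26.7, 68.8, 56.4, 8.22 and 21.0 with both, higher with the drug in 5 of 5 mice in each setting while the groups overlap.

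With LPS, the change of these enzymes with piericidin A was larger in some WT mice than in others. Aldoa stood at 1153, 1707, 1367, 1013 and 1064 CPM with LPS and 1804, 2254, 2439, 1036 and 1195 with both in WT. Pkm stood at 1102, 1448, 1101, 926 and 1012 CPM with LPS and 1638, 1948, 2030, 1031 and 1028 with both. Mice 449, 452 and 453 rose and mice 496 and 520 moved little. Gapdh went from 386, 671, 433, 434 and 307 to 666, 885, 772, 457 and 324 CPM and Gpi1 from 250, 384, 248, 192 and 197 to 435, 573, 466, 277 and 269 CPM. Tpi1, Pgk1, Eno1 and Ldha were higher in mice 449, 452 and 453 and lower in mice 496 and 520. In NDI1, Aldoa stood at 1771, 2474, 1185, 1069 and 1640 CPM with LPS and 1673, 2365, 1349, 983 and 1518 with both, higher in 1 of 5 mice. The difference between genotypes was called with the block for Gpi1 (-0.65 ± 0.12), Aldoa (-0.46 ± 0.13), Aldoc (-0.48 ± 0.15), Gapdh (-0.54 ± 0.13), Pgam1 (-0.43 ± 0.11) and Pkm (-0.47 ± 0.13), with adjusted p from 0.000933 to 0.0405. Leaving out 1 mouse at a time, this held for Gpi1, Gapdh and Pgam1, and was lost without any 1 of 5 mice for Aldoa (449, 453, 460, 503 or 521), 6 for Pkm (these and 447) and 7 for Aldoc (these, 447 and 496), with adjusted p up to 0.134. The split among WT mice was not tested.

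**Figure D3:**
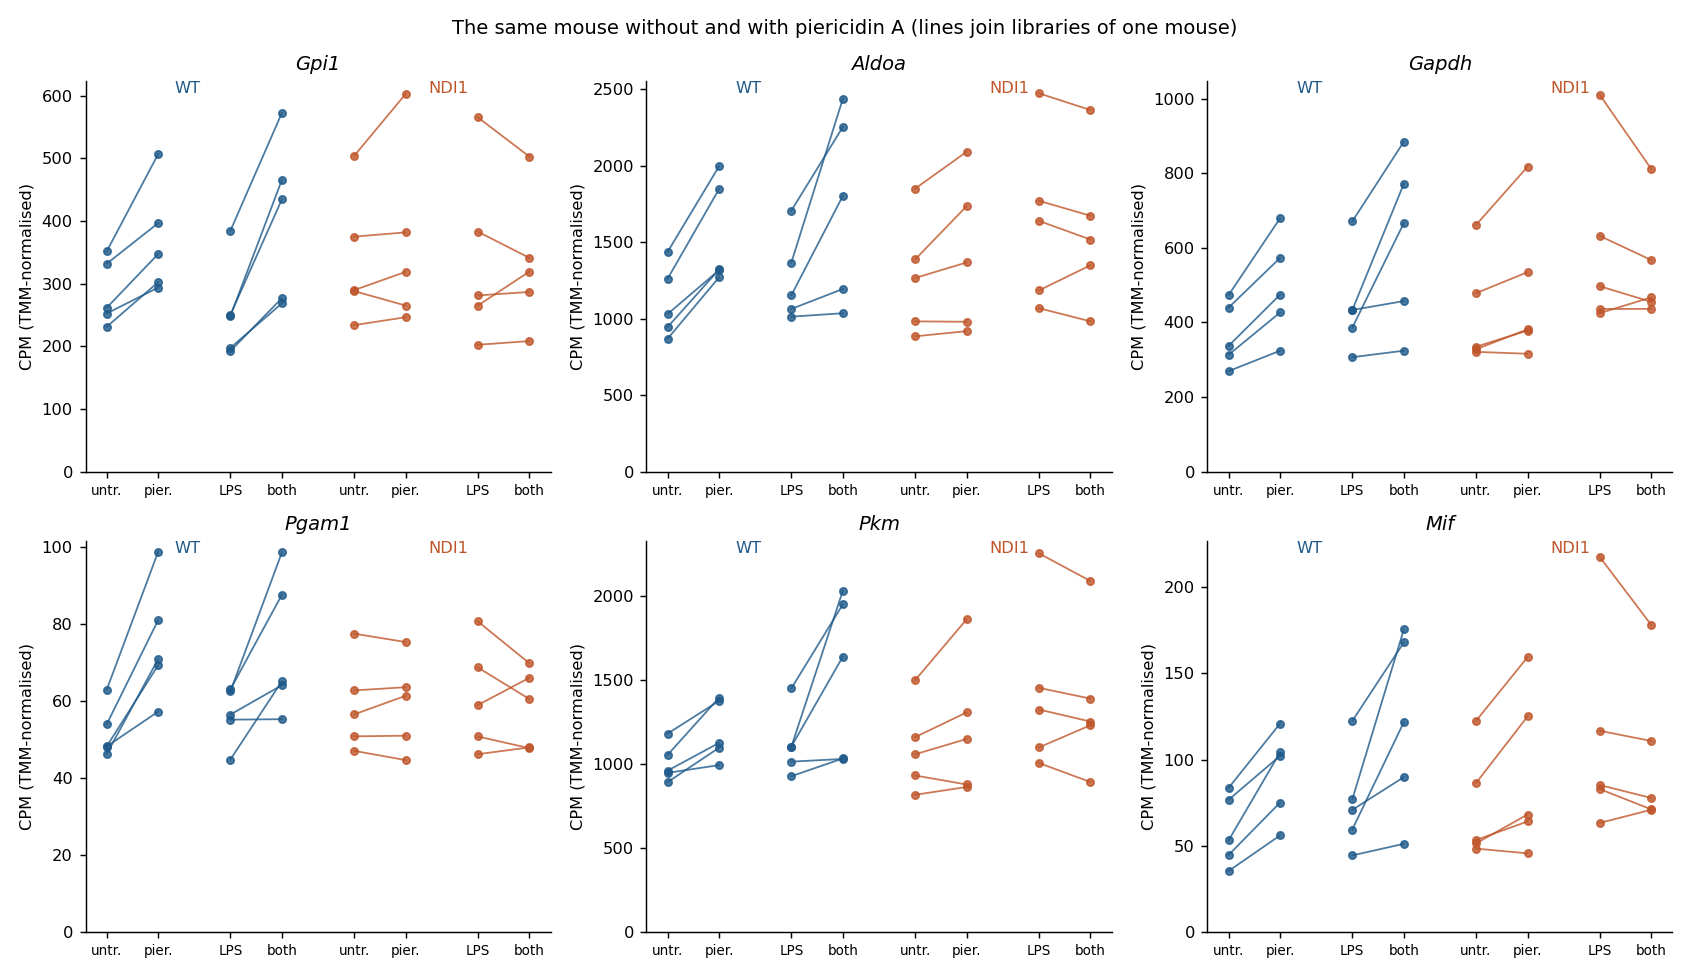
TMM-normalised CPM of Gpi1, Aldoa, Gapdh, Pgam1, Pkm and Mif in each mouse (lines join libraries of the same mouse) without and with piericidin A, in the absence (left pair) and presence (right pair) of LPS, for WT (blue) and NDI1 (orange). All WT lines rise without LPS, and with LPS 3 of the 5 WT lines rise steeply for Aldoa, Gapdh, Pkm and Mif.

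Lactate and pyruvate transport held the largest rise of a glycolysis gene with piericidin A alone. Slc16a1 (ENSMUSG00000032902, chr3:104638668-104658462), which encodes MCT1, stood in WT at 8.15, 7.66, 8.87, 15.4 and 8.37 CPM untreated, 24.2, 14.6, 18.5, 47.3 and 29.1 with piericidin A, 30.2, 20.7, 22.1, 42.4 and 33.0 with LPS and 45.7, 30.5, 30.4, 93.9 and 67.2 with both. In NDI1 it stood at 9.43, 10.5, 10.1, 14.7 and 8.09 CPM untreated, 10.7, 8.22, 11.7, 11.7 and 10.5 with piericidin A, 21.1, 15.3, 20.3, 38.8 and 21.6 with LPS and 21.6, 15.8, 25.4, 43.2 and 34.0 with both. Piericidin A raised it in 5 of 5 WT mice, by 1.46 ± 0.31 without LPS (adjusted p = 0.00121) and 0.86 ± 0.30 with LPS (adjusted p = 0.0455). In NDI1 the effects were 0.00 ± 0.31 (95% interval -0.63 to 0.64) and 0.26 ± 0.30 (-0.36 to 0.87), the latter higher in 5 of 5 mice. The difference without LPS was called with the block (-1.38 ± 0.22, adjusted p = 6.5e-05; 0.0924 without) and the difference with LPS with neither fit. The call with LPS was lost without any 1 of 7 mice (447, 449, 453, 461, 496, 520 or 521, adjusted p from 0.0570 to 0.165), with no filter (0.0552) and in the groups compared alone (0.0965). Slc16a3 (MCT4), by contrast with Slc16a1, was called with LPS (1.02 ± 0.30 in WT, 0.88 ± 0.30 in NDI1, the latter lost without mouse 503, adjusted p = 0.0678, without mice 496 and 503, 0.0632, and with upper-quartile scaling, 0.106) and in no comparison with piericidin A (0.39 ± 0.30 in WT without LPS). Ldha rose with LPS by 0.61 ± 0.25 in WT and 0.69 ± 0.25 in NDI1, and these calls were lost without mouse 449, 452, 496 or 520 (adjusted p from 0.0755 to 0.0919) and without mouse 521 (0.0668). Ldha was also lost in both genotypes with upper-quartile scaling (0.29, adjusted p = 0.345 in WT and 0.37, adjusted p = 0.227 in NDI1), and in WT with either other filter on low counts (0.0704 and 0.0569) and without mice 496 and 503 (0.0571).

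Hif1a (ENSMUSG00000021109, chr12:73901375-73947530) carries the mRNA of the regulated subunit. In WT it stood at 108, 127, 128, 226 and 187 CPM untreated, 217, 216, 175, 405 and 308 with piericidin A, 323, 277, 260, 494 and 334 with LPS and 464, 370, 236, 582 and 359 with both. The NDI1 libraries held 129, 151, 97.0, 213 and 162 CPM untreated, 135, 128, 109, 236 and 177 with piericidin A, 260, 240, 300, 495 and 292 with LPS and 269, 227, 284, 451 and 317 with both. LPS raised it by 1.12 ± 0.26 in WT and 1.08 ± 0.26 in NDI1. Piericidin A alone raised it in 5 of 5 WT mice (0.77 ± 0.26, adjusted p = 0.0432), with an NDI1 effect of 0.06 ± 0.26 (95% interval -0.47 to 0.59), and the difference was called with the block (-0.70 ± 0.17, adjusted p = 0.00825; 0.489 without). The WT call was lost without any 1 of mice 447, 449, 452, 496, 520 and 521 (adjusted p from 0.0563 to 0.122), with no filter (0.0594) and in the groups compared alone (0.0644), and was firmer with the block (0.74 ± 0.12, adjusted p = 2.1e-05).

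Vegfa (ENSMUSG00000023951, chr17:46016993-46032377), the angiogenic growth factor and a HIF-1 target, gave the clearest difference between genotypes. In WT it stood at 46.5, 40.3, 54.8, 77.9 and 38.5 CPM untreated and at 215, 132, 197, 202 and 161 with piericidin A, groups that do not overlap. In NDI1 it stood at 37.4, 72.2, 37.7, 44.1 and 33.4 CPM untreated and 41.9, 77.2, 41.6, 41.1 and 37.3 with piericidin A, nearly the same mouse by mouse. LPS lowered it to 19.2, 21.7, 16.4, 38.7 and 24.1 CPM in WT (-1.11 ± 0.23) and 18.4, 27.1, 17.2, 27.3 and 23.9 in NDI1 (-0.98 ± 0.23). With both agents it stood at 50.9, 55.7, 71.3, 72.0 and 47.1 CPM in WT, above every LPS library, and 20.6, 26.5, 15.8, 24.6 and 21.4 in NDI1. The effect of piericidin A in WT was 1.82 ± 0.23 without LPS (adjusted p = 7.6e-07) and 1.31 ± 0.24 with LPS (adjusted p = 0.000204). In NDI1 it was 0.09 ± 0.23 (95% interval -0.37 to 0.55) and -0.07 ± 0.24 (-0.55 to 0.41). The difference between genotypes was -1.73 ± 0.32 without LPS (adjusted p = 0.00180) and -1.38 ± 0.33 with LPS (adjusted p = 0.0326). The former was called under every alternative tried, and the latter was lost without any 1 of mice 447, 449, 453, 461, 503, 520 and 521 (adjusted p from 0.0628 to 0.0901) and without mice 496 and 503 together, and was called with the block (adjusted p = 0.000162).

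Ndrg1 (ENSMUSG00000005125, chr15:66929321-66969640), a stress-responsive gene induced by hypoxia, rose with each agent. In WT it stood at 44.3, 45.8, 37.5, 14.9 and 37.0 CPM untreated, 129, 74.99, 92.6, 117 and 155 with piericidin A, 105, 110, 96.8, 47.7 and 95.1 with LPS and 158, 153, 143, 101 and 123 with both. The NDI1 libraries held 55.7, 50.9, 46.6, 15.95 and 47.9 CPM untreated, 56.5, 47.5, 48.1, 16.2 and 58.4 with piericidin A, 126, 110, 96.7, 61.2 and 113 with LPS and 136, 109, 98.2, 67.2 and 116 with both. Piericidin A alone raised it in WT above every untreated library (1.66 ± 0.30, adjusted p = 0.000211). In NDI1 the effect was 0.06 ± 0.30 (95% interval -0.54 to 0.66) and the difference was -1.60 ± 0.42 (adjusted p = 0.0465; 4.5e-05 with the block), which was lost without any 1 of 8 mice (447, 449, 453, 460, 461, 496, 520 or 521, adjusted p from 0.0646 to 0.194), with upper-quartile scaling (0.0584) and in the groups compared alone (0.110). Mice 496 and 503 had the lowest Ndrg1 of their groups in the untreated and LPS libraries. With LPS the drug's effect in WT was called with the block only (0.61 ± 0.18, adjusted p = 0.00895).

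Adm (ENSMUSG00000030790, chr7:110627661-110629820), the vasoactive peptide adrenomedullin, was at very low counts without LPS. It had 6 counts in the 5 untreated WT libraries together and 70 with piericidin A, a ratio of 13.04 with a counting interval of 5.70 to 36.7 at 95%, which covers counting error only. In CPM the WT libraries were at 0.0815, 0.0623, 0.135, 0.00 and 0.127 untreated and 1.44, 0.697, 0.351, 2.28 and 0.933 with piericidin A, without overlap. In NDI1 there were 21 counts untreated and 4 with piericidin A (ratio 0.180, interval 0.0448 to 0.532). The fitted effects of piericidin A were 3.58 ± 0.69 in WT (adjusted p = 0.000372) and -2.26 ± 0.83 in NDI1 (adjusted p = 1.00), and their difference -5.83 ± 1.08 (adjusted p = 0.00180) rests on these few counts. LPS raised Adm in both genotypes, to 2.04, 3.10, 2.12, 6.17 and 5.60 CPM in WT and 1.98, 2.26, 4.19, 6.02 and 5.16 in NDI1 (count ratios 43.7, interval 19.6 to 121, and 11.8, interval 7.45 to 19.6). With LPS present, piericidin A left it at 2.95, 1.02, 1.44, 4.68 and 3.46 CPM in WT (-0.47 ± 0.47, not called), and the drug's effect in WT differed with and without LPS (-4.05 ± 0.84, adjusted p = 0.00296).

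**Figure D4:**
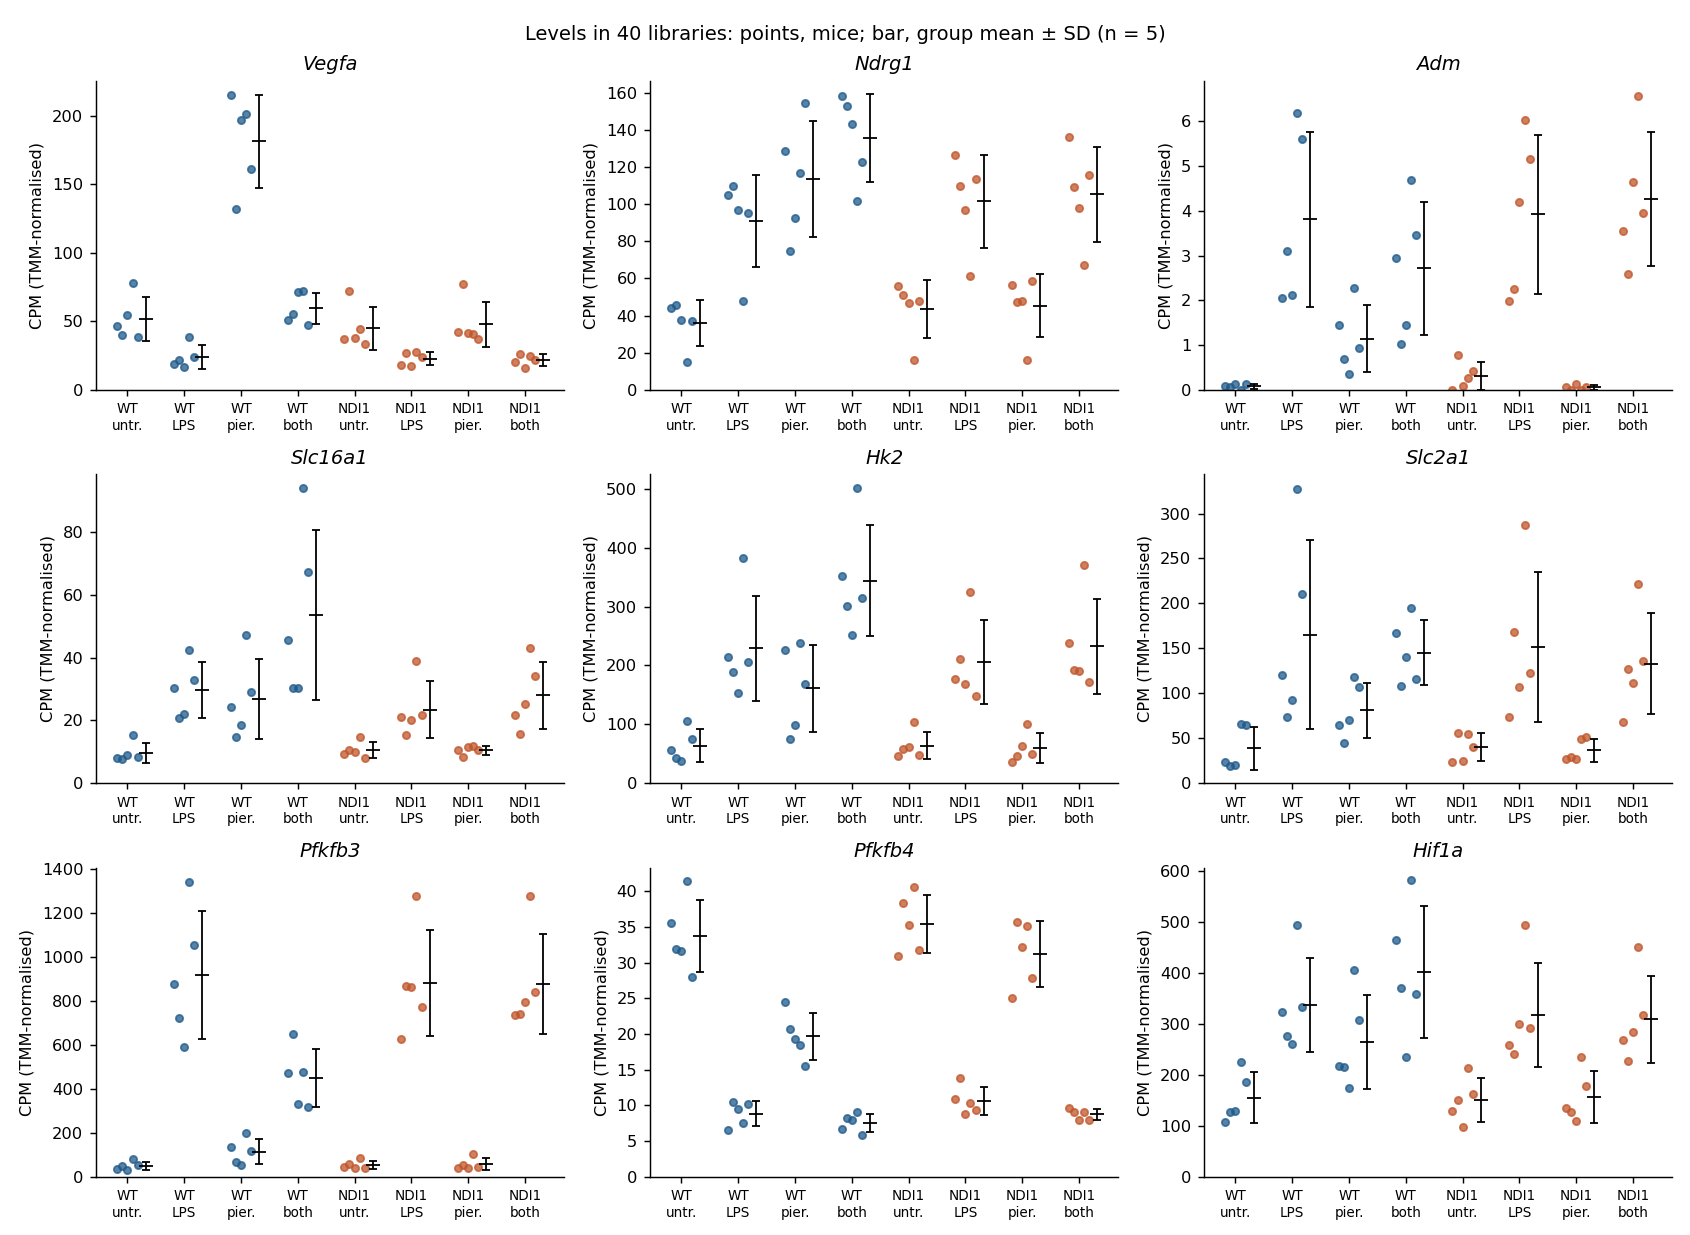
TMM-normalised CPM of Vegfa, Ndrg1, Adm, Slc16a1, Hk2, Slc2a1, Pfkfb3, Pfkfb4 and Hif1a in the 8 groups. Points are libraries, 1 per mouse, in WT (blue) and NDI1 (orange) BMDMs, and bars are mean ± SD of 5 mice. The WT piericidin A points of Vegfa (132 to 215 CPM) lie above all other Vegfa points, and the NDI1 points with piericidin A lie at the level of the NDI1 points without it for Vegfa, Ndrg1, Slc16a1 and Hk2.

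The remaining HIF-1 genes did not share 1 response. P4ha1, a collagen prolyl hydroxylase, rose with LPS from 63.0, 49.6, 47.2, 104 and 74.99 to 287, 232, 185, 356 and 306 CPM in WT (2.01 ± 0.20) and by 1.85 ± 0.20 in NDI1. With piericidin A alone P4ha1 stood at 67.1, 60.0, 59.0, 92.5 and 71.9 CPM in WT (0.05 ± 0.20), higher in 3 of 5 mice, and with LPS it was called lower with the block (-0.28 ± 0.09, adjusted p = 0.0181). Kdm3a, a histone demethylase, fell with LPS from 54.3, 52.9, 52.3, 66.1 and 69.6 to 34.6, 35.9, 25.5, 43.5 and 46.3 CPM in WT (-0.67 ± 0.13) and from 55.9, 71.3, 62.4, 62.0 and 56.8 to 37.1, 43.8, 34.98, 41.9 and 37.0 CPM in NDI1 (-0.66 ± 0.13), without overlap in either genotype, and had log2 fold changes of -0.04 ± 0.13 and -0.15 ± 0.14 with piericidin A in WT. Egln3, the hydroxylase known to be induced by HIF, stood at 1.55, 1.99, 2.30, 6.52 and 7.49 CPM untreated and 4.01, 4.53, 6.11, 11.6 and 10.3 with piericidin A in WT, higher in every mouse with overlapping groups, and was called with the block only (0.95 ± 0.32, adjusted p = 0.0232), as was its difference from NDI1 (-1.43 ± 0.46, adjusted p = 0.0471). In NDI1, Egln3 stood at 3.24, 23.3, 2.11, 7.44 and 3.08 CPM untreated and 1.76, 6.47, 1.85, 9.11 and 5.36 with piericidin A, so mouse 460 stood far above the others untreated. Without mouse 460 the Egln3 difference was -0.83 (adjusted p = 0.273), and it was lost without any 1 of 7 mice (447, 449, 452, 453, 460, 461 or 496). Mif, a cytokine whose gene is a HIF-1 target, went from 44.6, 83.5, 76.6, 53.0 and 35.3 to 75.05, 121, 102, 104 and 56.0 CPM with piericidin A in WT, higher in 5 of 5 mice and called with the block (0.67 ± 0.12, adjusted p = 5.6e-05). With LPS as well, Mif went from 59.4, 122, 76.9, 70.8 and 44.4 to 122, 168, 176, 89.8 and 51.1 CPM in WT, and the difference between genotypes was called with the block (-0.78 ± 0.17, adjusted p = 0.00389). Bnip3, a mitophagy receptor, rose with piericidin A alone in WT with the block (0.58 ± 0.18, adjusted p = 0.0118), with an NDI1 effect of -0.11 ± 0.18 and no called difference (adjusted p = 0.0845). Egln1 fell with LPS with the block in both genotypes (-0.39 ± 0.14 in WT, adjusted p = 0.0120), and Higd1a rose with LPS with the block in WT (0.37 ± 0.16, adjusted p = 0.0373). Pdk1, the kinase that holds back pyruvate entry into the TCA cycle, was the 1 gene of the 35 called in no comparison with either fit, with group means from 32.5 to 40.0 CPM.

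Between genotypes at the same treatment, 0 of 35 were called in untreated BMDMs (0% of all genes, DESeq2 0, with 1 of 35 and 39 of all genes at an unadjusted p under 0.05) and 0 of 35 with LPS (0%, DESeq2 0, with 0 of 35 and 141 of all genes at an unadjusted p under 0.05). With piericidin A alone 7 were called, Hk2, Pfkfb3, Slc16a1, Vegfa, Ndrg1 and Adm lower in NDI1 than in WT and Pfkfb4 higher (7.80% of all genes). With LPS and piericidin A, Slc16a1 and Vegfa were lower and Pfkfb3 higher in NDI1 (12.0% of all genes). These comparisons use the same libraries as the tests above and are between mice, so no block could be fitted. With piericidin A alone, Vegfa was 1.93 ± 0.23 lower on the log2 scale in NDI1 (adjusted p = 3.2e-07) and Hk2 1.44 ± 0.32 lower (adjusted p = 0.00354). The Pfkfb3 call with piericidin A alone was lost without any 1 of 7 mice (447, 449, 460, 461, 496, 520 or 521, adjusted p from 0.0911 to 0.160) and in the groups compared alone (0.140). With both agents Pfkfb3 was lost without any 1 of 7 mice (449, 453, 460, 461, 503, 520 or 521, 0.0511 to 0.126) or the smallest library (0.0814), and Slc16a1 without any 1 of 5 (447, 460, 461, 496 or 520, 0.0935 to 0.117) and in the groups compared alone (0.120).

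Further genes of the same pathways were read from lists beside the 35. Of 18 tested among 25 other glycolysis and sugar phosphate genes, LPS in WT raised the glucose transporter Slc2a6 (3.93, from 69.5 ± 31.2 to 1056 ± 240 CPM) and lowered 6, among them Bpgm (-1.75), Pfkfb2 (-1.59) and the glucose transporter Slc2a3 (-1.41), 38.9% of the 18 against 62.5% of all genes. Piericidin A alone in WT lowered G6pdx, the entry enzyme of the pentose phosphate pathway (-0.27), and raised 0 of the 18, with a median log2 fold change of 0.04. Of 28 tested among 32 other genes of the HIF pathway, LPS in WT raised 11 and lowered 6 (60.7% of the 28 against 62.5% of all genes). Piericidin A alone raised 6, among them Bhlhe40 (2.61), and lowered Ep300 and Zfp395 (28.6% of the 28 against 14.8%), with a median of 0.16. Nos2, the inducible nitric oxide synthase, was among the 6 (2.09) at very low levels, 0.211 ± 0.135 CPM untreated and 0.976 ± 0.563 with piericidin A. With LPS, piericidin A raised Ddit4, Bhlhe40 and Zfp395 and lowered Vhl and Egln2 in WT (17.9% of the 28 against 16.7%). In NDI1 the drug called 0 of the 18 and 0 of the 28 in either setting (0% of all genes in each). The genotype difference without LPS was called for Bhlhe40, a hypoxia-responsive repressor (-2.41, adjusted p = 3.5e-05), which ran from 18.8 to 35.7 CPM untreated and 83.3 to 211 CPM with piericidin A in WT, and from 23.1 to 41.3 and 21.9 to 52.0 CPM in NDI1. With LPS it was called for Bhlhe40 (-1.62, adjusted p = 0.0165) and for Ddit4, an inhibitor of mTORC1 (-2.92, adjusted p = 0.0244).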

How the data were processed

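RNA was extracted from BMDMs of 10 mice, and poly(A)-selected libraries were sequenced to 75 bases. Per the labels and the study's methods, the authors demultiplexed with bcl2fastq, trimmed with Trimmomatic, aligned to mm10 with STAR and counted exonic reads per gene with HTSeq. The deposited values are raw counts per gene, with no normalisation. The annotation release and strand setting are not given in the sources used here. A further 1 column of the table belongs to no labelled sample and was not used. Gene coordinates are those of the deposited table (mm10). Its length column exceeded the gene's own span for 8 of the 35 genes, so per-kilobase levels use merged exons of GENCODE vM21, which was also used for exon overlaps and shared 75-base stretches. Symbols were matched for 42462 of 43430 identifiers. Promoter sequences are from RefSeq (GRCm38.p6).

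Counts were filtered with filterByExpr (11853 genes kept), scaled by TMM and tested with edgeR 4.0.16 (limma 3.58.1, R 4.3.3) by the quasi-likelihood test on 8 group means, with Benjamini-Hochberg adjustment over all genes tested in each of 15 comparisons. Log2 CPM used a prior count of 2. SE is the log2 fold change divided by the square root of F. Figures were drawn with matplotlib 3.10.9. The script was tested on simulated counts. The groups come from the genotype and treatment labels, and the mouse from the number in each sample's title, which libraries of the same genotype share across the 4 treatments. Deviations from the group means correlated at a mean r of 0.453 (0.0995 to 0.769) over 60 pairs of libraries of the same number and -0.107 over 240 pairs of different numbers of a genotype, and the numbers were taken to pair the samples, which rests on reading the number as the mouse. Alternatives were DESeq2 1.42.0, RLE and upper-quartile scaling, no filter, at least 10 counts in every library, fitting only the groups compared, a mouse block and leaving out each mouse. Leaving out mice 496 and 503 (with and without the block) or the smallest library, and each mouse from the blocked fit, was added after seeing the data. The 35 genes, the lists beside them and the alternatives were chosen with earlier results of these data known. Values by library, in some or all of the groups compared, are given for 20 genes by a rule: Hif1a, every gene called in a test of the difference in the piericidin A effect between genotypes (with or without the block), and the 4 largest rises and 4 largest falls among called genes in each effect of LPS or piericidin A in WT. The other 15 are given by means, ranges and tests, and of the further pathway genes the 3 largest rises and 3 largest falls at most are named per comparison, with 1 gene not reported here.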

Additional observations from a re-analysis of the deposited data

Results flagged for a closer look

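Among 160 gene and group combinations of the 20 genes given by library, 16 (10%) held 1 library far from the other 4 by the gap against the group's range (Dixon's 95% criterion), where chance gives about 1 in 20 for normally distributed values. The 160 come from the same 10 mice and are not independent, so these shares are not a test. Of these, 7 were of NDI1 mouse 503, 5 of WT mouse 496, 3 of NDI1 mouse 460 and 1 of WT mouse 520. Mouse 503 was highest for Hk2 untreated (103 CPM), Pfkfb3 with piericidin A (104) and with both agents (1277), and Slc16a1 (38.8) and Hif1a (495) with LPS, and lowest for Ndrg1 untreated (15.95) and with piericidin A (16.2). Mouse 496 was highest with LPS for Hk2 (382 CPM) and Egln3 (7.68) and untreated for Slc16a1 (15.4), and lowest for Ndrg1 untreated (14.9) and with LPS (47.7). Mouse 460 was highest for Vegfa untreated (72.2 CPM) and with piericidin A (77.2) and for Egln3 untreated (23.3), and mouse 520 for Pfkm with LPS (9.08). The neutrophil markers of mice 496 and 503 were the highest of all mice, and their part in these values was not tested.

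The effect of piericidin A differed between genotypes by edgeR's test of the difference (NDI1 minus WT, log2) without LPS for Vegfa (-1.73), Ndrg1 (-1.60) and Adm (-5.83), and with LPS for Vegfa (-1.38). In WT the effect with LPS minus that without LPS was -2.24 for Pfkfb3, lower in 5 of 5 mice, and -4.05 for Adm, whose counts without LPS were few.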

How the results depend on the processing

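With the mouse as a replicate block, more of the 35 genes were called: with LPS 27 in WT and 28 in NDI1, with piericidin A in WT 23 without LPS and 15 with LPS, for the genotype difference in the piericidin A effect 11 without LPS and 9 with LPS, and for the change of that effect with LPS in WT 8 (72.0%, 72.4%, 34.2%, 34.5%, 8.96%, 9.51% and 17.4% of all genes, in this order). The block could not be fitted for comparisons between genotypes, which are between mice. Fitting only the groups compared gave 2 genes for piericidin A with LPS in WT (6.46% of all genes), and requiring at least 10 counts in every library, which drops Adm, gave 1 for the change of the effect with LPS (5.70%). Without mice 496 and 503 the genotype difference with LPS was called for 0 (0.152%, 4 of the 35 at an unadjusted p under 0.05 in edgeR). Leaving out each mouse in turn gave 1 to 5 genes for piericidin A with LPS in WT (2 without mouse 449, 453 or 520 and 1 without mouse 496; 7.12% to 17.1% of all genes), 0 to 1 for the genotype difference with LPS (0 without mouse 447, 449, 453, 461, 503, 520 or 521; 0.228% to 2.15%) and 1 to 3 between genotypes with both agents (1 without mouse 460, 461 or 520; 6.26% to 15.1%). With the block, leaving out each mouse gave 9 to 11 genes for the genotype difference without LPS (5.34% to 11.1%) and 6 to 10 with LPS (3.86% to 13.8%). The causes were not tested. With the block and without mice 496 and 503 the counts were 22 and 27 with LPS in WT and NDI1 (68.7% and 68.9%), 19 and 16 with piericidin A in WT without and with LPS (22.8% and 22.4%), 8 and 5 for the genotype difference without and with LPS (3.33% and 2.46%) and 4 for the change of the effect with LPS (8.21%). In the other fits without the block, the other counts stayed within 1.5 times the main one, no call changed direction, and piericidin A in NDI1 gave 0 in these and with the block. Upper-quartile scaling moved the median of all genes with LPS by -0.319 in WT and -0.328 in NDI1 and gave 12 higher and 5 lower, and 11 higher and 6 lower. Low counts limit Adm, Ankrd37, Egln3, Eno2, Pfkm and, without LPS, Nos2.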
